A study of Mus musculus with 7 samples.

Results

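One day of dosing with Ephedra herba was set against no treatment, with 3 of the 7 arrays of the series: the day 1 arrays at 50 and at 1250 mg/kg and the untreated array. All arrays held brain RNA of 5-week-old C57BL/6 female mice. The treated mice received an aqueous extract of Ephedra herba by mouth, here for 1 day, and the series also has days 3 and 10. Each condition is 1 Illumina bead array, the labels do not say how many animals it pools, and no difference below has a replicate check or a test. The comparison covers 9009 named genes, each read by its brightest probe among those with a value on all 7 arrays.

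Ephedra herba contains ephedrine and related alkaloids, which act on adrenergic receptors directly and by releasing noradrenaline. In the brain, stimulants of this kind are known for arousal and for inducing immediate early genes in neurons. Stress and handling also raise glucocorticoid hormone, which switches on genes such as Sgk1 and Ddit4 in many tissues.

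Values are quantile-normalized log2 intensities. The zero of the scale is arbitrary and the log base, which the labels do not state, was taken as 2, so folds hold only for that base. On the untreated array the lowest 10% of genes lay at or below 0.18 and the median gene at 2.19. A change is the day 1 array minus the untreated array, and a gene is called where the change is 0.585 or more in size, which is 1.5-fold. Of all changes the median was 0.01 at 50 mg/kg and 0.00 at 1250 mg/kg, with a standard deviation over genes of 0.17 and 0.24. Both doses are set against the same untreated array, so a departure of that array from the others enters both changes with the same sign. Markers of brain were measured: 12 of 17 listed astrocyte genes, 14 of 17 oligodendrocyte genes and 12 of 20 cortical and hippocampal neuron genes had values. In whole tissue, fewer cells of a type and less RNA per cell cannot be told apart.

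At 50 mg/kg, 28 genes were called (0.311% of genes), 10 higher (0.111%) and 18 lower (0.2%). At 1250 mg/kg, 94 were called (1.04%), 49 higher (0.544%) and 45 lower (0.5%). Set side by side, 4 genes were higher (0.0444%) and 11 lower (0.122%) at both doses. At 50 mg/kg alone 6 were higher (0.0666%) and 7 lower (0.0777%), and at 1250 mg/kg alone 45 were higher (0.5%) and 34 lower (0.377%). No gene was called in opposite directions at the 2 doses (0 of 9009). At the edge of the threshold, Xlr4a was the last gene inside the higher group of both doses, at 1.20 and 0.60, and Sgk1 the first outside, at 0.54 and 1.02. On the lower side Ifit3 was just inside, at -0.59 and -1.38, and Isg15 just outside, at -0.55 and -0.87. Genes named as belonging to 1 dose alone may thus lie close to the threshold at the other.

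**Figure D1:**
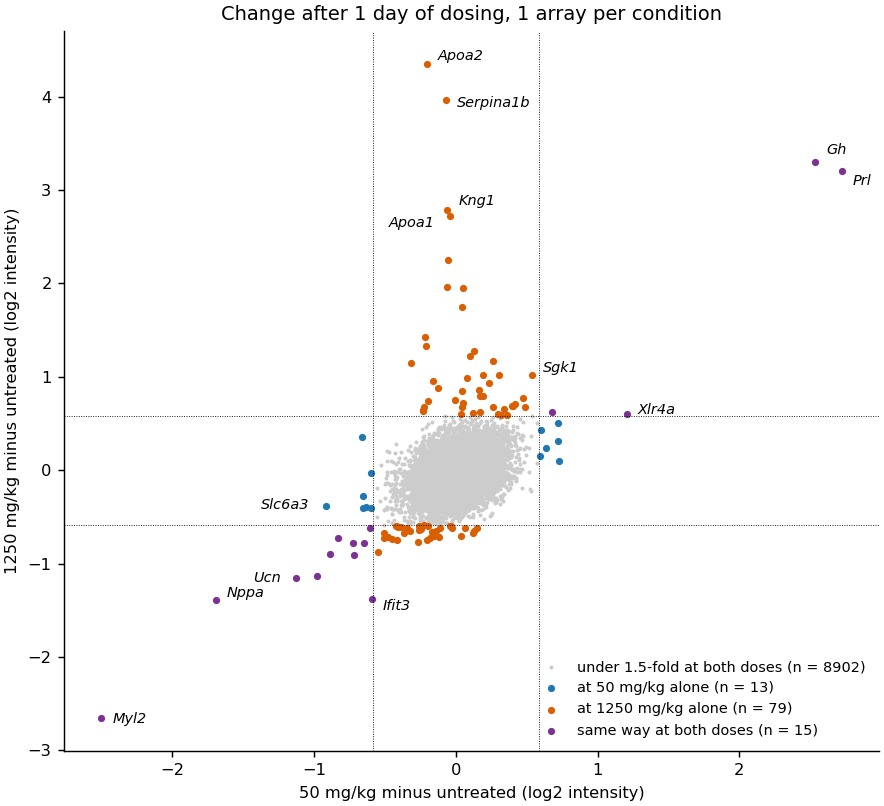
Change of each of 9009 genes at 50 mg/kg (horizontal axis) and at 1250 mg/kg (vertical axis) on day 1 against the untreated array, in log2 intensity, with dotted lines at 1.5-fold. The 15 genes called at both doses lie in 2 opposite corners, the liver transcripts led by Apoa2 and Serpina1b lie high on the vertical axis alone, and the corners for opposite directions are empty. The untreated array is subtracted on both axes, so the tilt of the cloud is not a result.

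Called genes were more often dim than bright. Of 3 equal groups of 3003 genes by mean level, the dimmest held 14 of the 28 called at 50 mg/kg and 54 of the 94 called at 1250 mg/kg, and the brightest held 4 and 16. Dim genes also varied more: the standard deviation of the change at 1250 mg/kg was 0.27 in the dimmest group and 0.22 in the brightest. Of the 107 genes called at either dose, 16 had further probes. Of those 21 probes, 17 moved the same way as the brightest probe and 5 of them passed 1.5-fold.

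The largest increases shared by both doses were those of 2 pituitary hormones. Gh, growth hormone, had levels of 2.61 and 3.38 on the 50 and 1250 mg/kg arrays, against 0.07 on the untreated array. That is 5.80-fold and 9.88-fold higher, against an untreated level among the lowest 10% of genes. Prl, prolactin, had levels of 3.63 and 4.11 on the day 1 arrays, against 0.91 on the untreated array, 6.59-fold and 9.23-fold higher. Both hormones come from the anterior pituitary, a gland that hangs below the brain. Of 14 listed pituitary genes 4 had a value, and the other measured members, Chga and Lhx3, changed by 0.07 and 0.02 at 50 mg/kg and by 0.12 and 0.26 at 1250 mg/kg. The summed level of the 4 genes, in log2, was 5.01 and 5.40 on the day 1 arrays, against 4.01 on the untreated array. On the 4 later arrays it ran from 3.55 to 4.71. Gh and Prl themselves stood at 2.31 and 3.42 on day 3 at 50 mg/kg. On each of the other later arrays both lay between -0.81 and -0.49, below the untreated array. How much pituitary each dissection held was not tested.

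The other genes higher at both doses were Xlr4a and Krt9. Xlr4a, an X-linked gene of a family with near-identical copies that its probe may also read, had levels of 3.46 and 2.85 at 50 and 1250 mg/kg, against 2.25 in untreated brain. It was 2.31-fold and 1.52-fold higher, and thus nearer to the untreated array at the higher dose. Krt9, a keratin of the skin of palms and soles, had levels of 1.00 and 0.95 on the day 1 arrays, against 0.32 on the untreated array.

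Of the 11 genes lower at both doses, those with the largest changes encode proteins of heart muscle. Myl2, the myosin light chain of the ventricle, had levels of 0.45 and 0.30 at 50 and 1250 mg/kg, against 2.95 in the untreated sample, 5.67-fold and 6.29-fold lower. Nppa, the precursor of atrial natriuretic peptide, had levels of -0.11 and 0.19 on the day 1 arrays, against 1.58 on the untreated array. On the later arrays both were again low except on day 10 at 50 mg/kg, where Myl2 stood at 2.87 and Nppa at 1.15, so 2 of the 7 arrays carry most of this signal. Of 23 listed heart and skeletal muscle genes 6 had a value, and 2 were called lower at each dose, beside backgrounds of 0.2% and 0.5%. The other 4, Tnnc1, Des, Acta1 and Myl4, changed by between -0.30 and 0.03 at 50 mg/kg and between -0.48 and -0.34 at 1250 mg/kg. The summed level of the list was 5.32 and 5.18 on the day 1 arrays, against 5.78 on the untreated array. Ckmt2, the mitochondrial creatine kinase of striated muscle, which is not on the list, had levels of -0.23 and -0.36, against 0.42 in untreated brain. Whether muscle RNA in the untreated sample sets these differences was not tested.

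Interferon-stimulated genes formed a second group that was lower. These genes are switched on by type I interferon through a protein complex that binds the interferon-stimulated response element in their promoters, and many limit virus growth. Ifit3, which binds proteins of the antiviral response, had levels of 2.32 and 1.53 at 50 and 1250 mg/kg, against 2.91 in untreated brain, 1.51-fold and 2.61-fold lower. Its 2 other probes lay between -0.09 and 0.02 on these 3 arrays and changed by -0.11 and 0.04 at 50 mg/kg and by -0.00 and -0.04 at 1250 mg/kg, so with the probes averaged its changes were -0.22 and -0.47 and the calls ended. Usp18, the protease that removes Isg15 from proteins, had levels of 0.47 and 0.28, against 1.19, and its second probe changed by -0.58 and -0.66. Ifi27l2a, an interferon-induced gene that the list does not hold, had levels of 0.28 and 0.13 on the day 1 arrays, against 1.27 on the untreated array.

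At 1250 mg/kg alone the interferon group also held Isg15, a ubiquitin-like modifier, and Ifitm3, which blocks virus entry. Isg15 had levels of 0.66 and 0.34 at 50 and 1250 mg/kg, against 1.21 in untreated brain. Ifitm3 had levels of 3.22 and 3.01 on the day 1 arrays, against 3.73. Of 14 measured genes of the list, 14 lay below the untreated array at 50 mg/kg and 12 at 1250 mg/kg, and 2 and 4 were called lower, beside backgrounds of 0.2% and 0.5%. The list's median was -0.36 and -0.47, where all genes had 0.01 and 0.00. The exceptions at 1250 mg/kg were Rsad2, at 0.14, and Ifit2, at 0.22. On the 4 later arrays the median of the list was again below 0, between -0.35 and -0.29 in 3 of them and -0.36 on day 10 at 1250 mg/kg, all set against the same untreated array. Of the genes on no list, Parp14, a poly-ADP-ribosyltransferase of the interferon response, was lower at 1250 mg/kg by 0.75 on the log2 scale, the immunity GTPase Irgm2 by 0.65 and the guanylate-binding protein Gbp3 by 0.59.

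The promoters of 3 of these genes are shown because each holds letters of the response element through which interferon acts. Sequences are the 250 bases before the RefSeq start on GRCm38.p6, 5′ to 3′, and capitals mark each match to GAAA, any 2 bases and GAAA again, on either strand, with overlapping matches run together.
Ifit3, chr19:34583279-34583528, plus strand: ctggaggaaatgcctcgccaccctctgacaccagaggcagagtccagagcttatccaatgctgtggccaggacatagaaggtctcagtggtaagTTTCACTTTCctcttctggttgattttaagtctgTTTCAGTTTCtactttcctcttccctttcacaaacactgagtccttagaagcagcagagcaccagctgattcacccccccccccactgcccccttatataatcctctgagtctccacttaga
Isg15, chr4:156200819-156201068, minus strand: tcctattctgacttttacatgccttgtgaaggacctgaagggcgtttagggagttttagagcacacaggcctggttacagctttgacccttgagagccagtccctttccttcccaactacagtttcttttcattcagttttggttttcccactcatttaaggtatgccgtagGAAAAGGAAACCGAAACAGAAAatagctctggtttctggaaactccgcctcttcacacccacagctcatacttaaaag
Irgm2, chr11:58214727-58214976, plus strand: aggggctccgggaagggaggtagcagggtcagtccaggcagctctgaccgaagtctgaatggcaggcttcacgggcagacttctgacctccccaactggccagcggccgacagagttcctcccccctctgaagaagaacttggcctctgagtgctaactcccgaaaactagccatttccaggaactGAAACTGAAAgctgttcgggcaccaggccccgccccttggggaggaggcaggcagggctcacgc
Ifit3 has 2 matches, the farther beginning 156 bases before the start. Isg15 has 3 overlapping matches within bases 78 to 57, and Irgm2 has 1 between bases 64 and 55. Of all 32851 RefSeq promoters, each counted on its own, 2.98% hold this motif in the same 250 bases. A called gene is instead counted once, where any of its promoters holds the motif. Among called genes with a promoter in the table, it was found in 1 of 9 lower at both doses (Ifit3), in 4 of 29 lower at 1250 mg/kg alone (Isg15, Irgm2, Gbp3 and Unc80) and in 2 of 38 higher at 1250 mg/kg alone (Armcx5 and Sgk1). Usp18 and Ifi27l2a had no promoter sequence available and were not searched. A match is a description of letters and was not tied to binding.

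Also lower at both doses were Ucn, Cartpt and Sncg, which neurons express. Ucn encodes urocortin, a peptide of the corticotropin-releasing factor family that is known from the Edinger-Westphal nucleus of the midbrain. It had levels of -0.28 and -0.30 at 50 and 1250 mg/kg, against 0.85 in untreated brain, 2.18-fold and 2.22-fold lower, and both day 1 values lay near the floor. Cartpt, the precursor of the CART peptides, which neurons of that nucleus also make, had levels of 3.45 and 3.56, against 4.29, and its second probe changed by -0.72 and -0.65. Cartpt is well above the floor on all 3 arrays, and the day 1 arrays differed from each other by 0.11. Sncg, gamma-synuclein, had levels of 2.03 and 1.99, against 2.76. Its second, dimmer probe changed by -0.37 and -0.11, and with both averaged the changes were -0.55 and -0.44 and the calls ended.

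Irx2 and Tfap2b, transcription factors of development, were lower too. Irx2 had levels of 0.41 and 0.40 on the 50 and 1250 mg/kg arrays, against 1.30 on the untreated array, while the 4 later arrays lay above the untreated one, by 0.24 to 0.33. Tfap2b had levels of -0.14 and -0.15, against 0.47, and its 2 other probes changed by -0.67 and -0.49 at 50 mg/kg and by -0.80 and -0.43 at 1250 mg/kg. In both genes the day 1 arrays therefore stood lowest of the 7.

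The promoters of Ucn and Cartpt are shown because these peptide genes, both lower at the 2 doses, each carry the palindrome TGACGTCA, the cAMP response element bound by CREB. They are given as above, with the palindrome in capitals.
Ucn, chr5:31138896-31139145, minus strand: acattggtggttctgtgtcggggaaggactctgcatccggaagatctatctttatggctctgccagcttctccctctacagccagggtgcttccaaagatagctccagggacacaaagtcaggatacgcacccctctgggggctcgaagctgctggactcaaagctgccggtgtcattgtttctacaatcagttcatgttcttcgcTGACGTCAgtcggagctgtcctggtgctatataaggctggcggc
Cartpt, chr13:99900684-99900933, minus strand: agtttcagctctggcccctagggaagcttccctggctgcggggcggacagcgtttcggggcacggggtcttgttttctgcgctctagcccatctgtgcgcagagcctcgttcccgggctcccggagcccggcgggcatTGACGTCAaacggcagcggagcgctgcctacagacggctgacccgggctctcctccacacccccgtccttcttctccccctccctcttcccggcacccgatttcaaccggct
The element ends 37 bases before the start in Ucn and 105 bases before it in Cartpt. It stands in 1.55% of all promoters. With each called gene counted once as above, it stands in 2 of 9 genes lower at both doses. It also stands in 1 of 6 genes lower at 50 mg/kg alone (H4c8). Among genes called at 1250 mg/kg alone, it stands in 0 of 29 lower and in 2 of 38 higher (Errfi1 and Ltbp1).

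**Figure D2:**
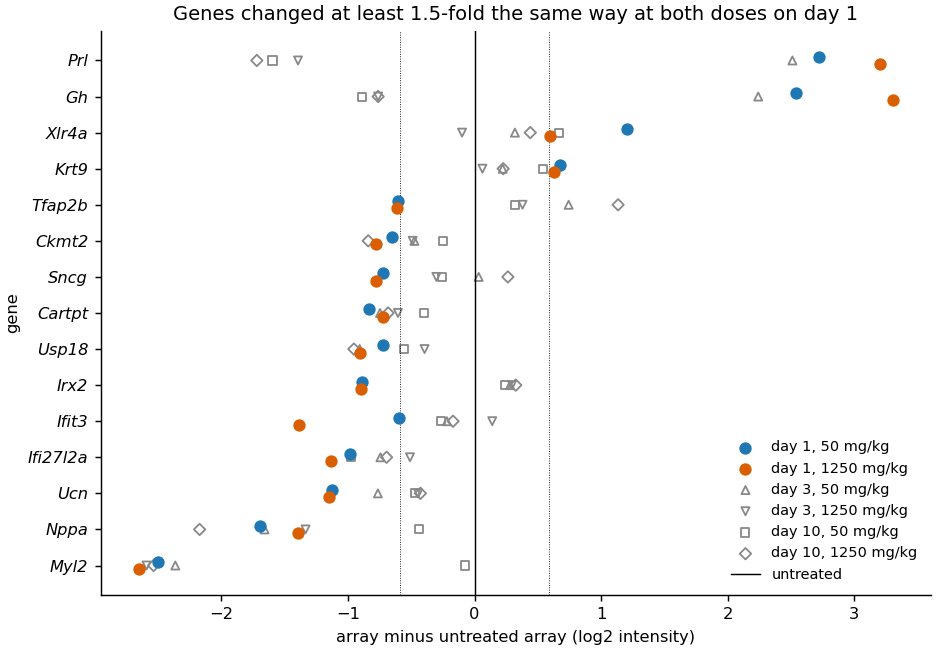
Change of the 15 genes called at both doses on day 1, each array minus the untreated array in log2 intensity, with filled points for day 1, open grey symbols for the 4 later arrays, a solid line at the untreated array and dotted lines at 1.5-fold. Irx2 and Tfap2b lie left of the line on day 1 and right of it later. In contrast, Usp18, Cartpt, Ucn, Ifi27l2a, Myl2, Nppa and Ckmt2 lie left of it on all 6 treated arrays, which share 1 untreated array.

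The neuropeptide list as a whole was lower, with exceptions at the higher dose. Of 18 listed hypothalamic neuropeptide genes 11 had a value, 10 of them below the untreated array at 50 mg/kg and 8 at 1250 mg/kg, with medians of -0.19 and -0.14. Besides Ucn and Cartpt, the vasopressin precursor Avp was called at 1250 mg/kg, with levels of 2.86 and 2.66 at 50 and 1250 mg/kg, against 3.26 in untreated brain. Oxt, the oxytocin precursor, changed by -0.40 and -0.15.

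The dopamine transporter and the serotonin synthesis enzyme Tph2 were called lower at 50 mg/kg alone. Slc6a3, the dopamine transporter and a target of stimulant drugs, had levels of 1.43 and 1.96 at 50 and 1250 mg/kg, against 2.34 in untreated brain. It was 1.89-fold lower at 50 mg/kg, the largest change among the 13 genes called at that dose alone, and 1.30-fold lower at 1250 mg/kg. Of 7 measured genes of catecholamine synthesis and transport 5 were below the untreated array at each dose, with medians of -0.14 and -0.165, and Slc6a3 was the 1 called. Th, the rate-limiting enzyme of catecholamine synthesis, changed by -0.53 and 0.06, and Ddc, which makes dopamine and serotonin from their precursors, by -0.45 and -0.28. Gch1, which makes the cofactor of Th, changed by 0.11 and 0.52.

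Tph2, the brain enzyme of serotonin synthesis, had levels of 0.00 and 0.20 at 50 and 1250 mg/kg, against 0.60 in untreated brain, and was called at 50 mg/kg alone. Slc6a4, the serotonin transporter, changed by -0.27 and -0.37. Of 5 measured genes of serotonin neurons and receptors 4 and 3 were below the untreated array, with medians of -0.20 and -0.16, and all 4 measured hindbrain genes were below it at each dose, with medians of -0.37 and -0.38. Among 7 cerebellar genes the medians were -0.27 and -0.09, and Pcp2, a Purkinje cell transcript near the floor, had levels of -0.63 and 0.40, against 0.04. Among brighter genes alone, which leaves 2 cerebellar genes, the cerebellar median at 1250 mg/kg turned to 0.21. How much midbrain and hindbrain each sample held was not tested.

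The remaining genes lower at 50 mg/kg alone were Cryab, Cox7a1, Cox20 and H4c8. Cryab, a small heat shock protein, had levels of 4.18 and 4.56 at 50 and 1250 mg/kg, against 4.83 in untreated brain. Cox7a1, the muscle form of a cytochrome c oxidase subunit, changed by -0.63 and -0.39, and the histone gene H4c8, whose probe may read other histone copies, by -0.66 and -0.40. Cox20, an assembly factor of that oxidase, changed by -0.60 and -0.03. Of these 7 genes, Cox20 had the smallest change at the other dose. Cryab, Cox7a1 and H4c8 stood higher on the untreated array than on each of the 6 treated arrays. Whether muscle RNA in the untreated sample enters the Cox7a1 values was not tested.

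Higher at 50 mg/kg alone were 6 genes by small margins. Plin4, a lipid droplet protein induced by glucocorticoids, had levels of 1.19 and 0.56 at 50 and 1250 mg/kg, against 0.46 in untreated brain. Rbm3, an RNA-binding protein induced by cold, had levels of 4.70 and 4.29, against 3.98. Minpp1, an inositol phosphate phosphatase, changed by 0.72 and 0.50, the ceramidase Acer2 by 0.64 and 0.24, Fibcd1 by 0.60 and 0.43, and the meiotic cohesin Rec8 by 0.60 and 0.15. All 6 were thus also above the untreated array at 1250 mg/kg.

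Among the 3 arrays compared, the 1250 mg/kg array stood apart by its liver transcripts. Apoa2, an apolipoprotein of high-density lipoprotein, had levels of 0.30 at 50 mg/kg and 4.85 at 1250 mg/kg, against 0.50 in untreated brain, 20.4-fold higher at 1250 mg/kg. Serpina1b, a protease inhibitor of plasma, had levels of -0.59 and 3.45, against -0.52, and its second probe changed by 0.29 and 3.35. Kng1, the precursor of bradykinin, had levels of -0.69 and 2.16, against -0.63. At 50 mg/kg and without treatment these 3 genes lay at or below 0.50, so the size of the fold rests on values near the floor.

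Of 42 listed liver genes 17 had a value, and 13 were called higher at 1250 mg/kg, beside a background of 0.544%, while 0 were called at 50 mg/kg. Their medians were -0.06 at 50 mg/kg and 1.43 at 1250 mg/kg, and the second was 0.29 over the 3 brighter members. Against the same untreated array, the list's median on day 3 was -0.03 at 50 mg/kg and 0.24 at 1250 mg/kg. On day 10 it was 0.53 at 50 mg/kg and 1.502 at 1250 mg/kg. The liver signal was thus weaker on day 3 at 1250 mg/kg and present on day 10 at 50 mg/kg. The list was drawn up with earlier results of these data known, so its count is a description. The 13 were Apoa1, Apoa2, Apoc1, Apoc3, Serpina1b, Kng1, Fgg, Mat1a, Mup2, Gsta3, Cyp2a5, Hpx and Hp. They cover lipoproteins, the clotting protein fibrinogen (Fgg), methionine metabolism (Mat1a), major urinary proteins (Mup2) and carriers of haemoglobin and haem (Hp and Hpx). Apoc1, with levels of 1.24 and 3.26, against 1.30, was the 1 among the 13 whose untreated level was above 1, and its second probe changed by 0.00 and 2.11. Mup2, Serpina1b, Gsta3 and Cyp2a5 have close paralogs that their probes could also detect. Genes on no list included Ces1d, Rdh7, Acaa1b and Inmt, which are known as enzymes of the liver among other tissues, at 0.96, 0.88, 0.72 and 0.67. Ttr, which the choroid plexus makes as well as the liver, changed by -0.08 and 0.53.

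Hba-a1, Hbb-bt, Alas2 and S100a8, transcripts of blood cells, were higher on the same array. Hba-a1, an alpha-globin, had levels of 7.70 and 8.41 at 50 and 1250 mg/kg, against 7.54 in untreated brain. Hbb-bt, a beta-globin, had levels of 1.40 and 2.55, against 1.28, and Alas2, the haem synthesis enzyme of red cell precursors, had levels of 1.38 and 2.10, against 1.08. Of 5 measured erythrocyte genes 3 were called higher at 1250 mg/kg, beside a background of 0.544%, with medians of 0.12 and 0.86. The other members were Car2, a carbonic anhydrase, at -0.17 and 0.06, and Fech, the last enzyme of haem synthesis, at -0.10 and -0.35. The neutrophil transcript S100a8 had levels of 0.53 and 1.40, against 0.77, and the other 2 measured neutrophil genes, Mmp9 and Csf3r, changed by -0.05 and -0.09 at 1250 mg/kg, with list medians of 0.08 and -0.05. The summed level of the liver list, which Ttr dominates, was 7.72 and 8.56, against 7.88, and that of the erythrocyte list 7.82 and 8.50, against 7.68. On day 3 the erythrocyte median was 0.11 at 50 mg/kg and -0.27 at 1250 mg/kg. On day 10 it was 0.37 at 50 mg/kg and 0.93 at 1250 mg/kg. Whether the liver and blood transcripts reached the sample together was not tested. Without the genes of the liver, erythrocyte, neutrophil, pituitary and muscle lists, an alternative chosen after seeing the data, 28 of the 45 genes higher at 1250 mg/kg alone remained.

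**Figure D3:**
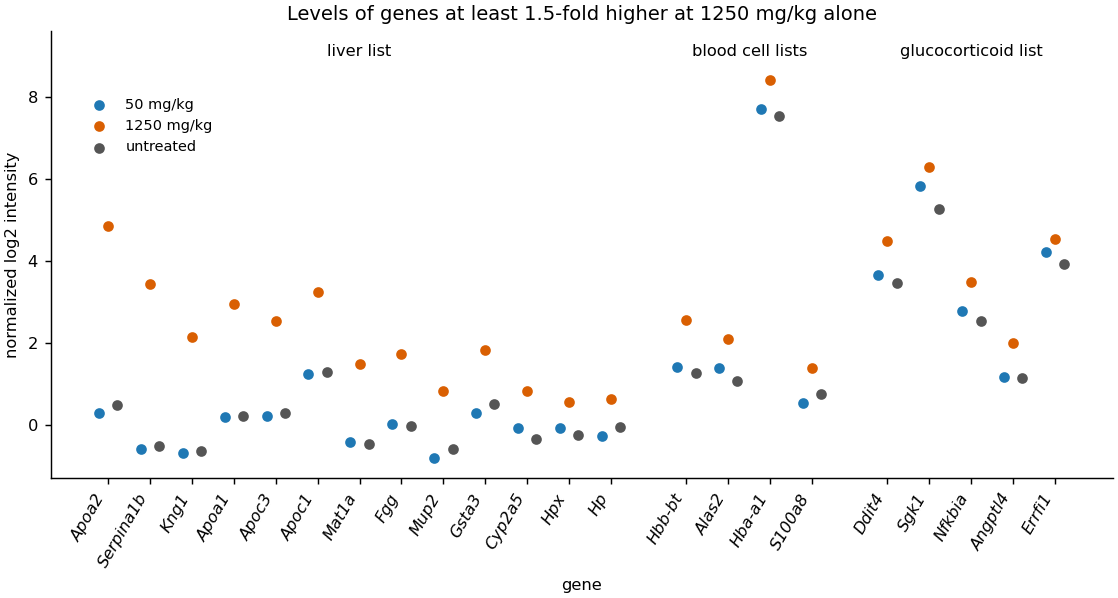
Normalized log2 intensity of the genes called higher at 1250 mg/kg alone that belong to the liver, blood cell and glucocorticoid lists, with 1 point for each of the 50 mg/kg, 1250 mg/kg and untreated arrays. For the liver genes the 50 mg/kg and untreated points stand at 1.24 and 1.30 for Apoc1 and below 1 for the other 12, while Sgk1 stands at 5.82 and 6.30, against 5.28 untreated, with the 50 mg/kg point in between.

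Glucocorticoid-responsive genes were higher at both doses as a list and were called mostly at 1250 mg/kg. Of 22 listed 18 had a value, of which 18 lay above the untreated array at 50 mg/kg and 16 at 1250 mg/kg, with medians of 0.20 and 0.34. At 50 mg/kg 1 was called (Plin4, background 0.111%) and at 1250 mg/kg 5 were (background 0.544%). Sgk1, a kinase that regulates ion channels, had levels of 5.82 and 6.30 at 50 and 1250 mg/kg, against 5.28 in untreated brain, 1.45-fold and 2.02-fold higher. Ddit4, an inhibitor of the growth kinase mTOR, had levels of 3.65 and 4.48, against 3.46, and Nfkbia, the inhibitor of NF-kappa-B, had levels of 2.78 and 3.49, against 2.55. Angptl4, an inhibitor of lipoprotein lipase, had levels of 1.18 and 1.99, against 1.14, and Errfi1, a brake on the epidermal growth factor receptor, changed by 0.295 and 0.60. Sgk1, Ddit4, Nfkbia and Errfi1 lay above the median gene on all 3 arrays, whereas Angptl4 was dimmer than it on each.

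Some classical targets were not called. Fkbp5, a chaperone of the glucocorticoid receptor, changed by 0.12 and -0.14, Mt1, a metallothionein, by 0.015 and -0.09, and Tsc22d3, known as GILZ, by 0.15 and 0.57. The liver list moved on the 1250 mg/kg array as well, and the part of liver RNA in the levels of Angptl4 or Sgk1 was not tested.

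Among the other genes higher at 1250 mg/kg alone were 2 of the olfactory bulb. Doc2g, a synaptic protein of mitral cells, had levels of -0.21 and 1.26 at 50 and 1250 mg/kg, against 0.11 in untreated brain, and its second probe changed by -0.42 and 0.49. Cdhr1, a cadherin of mitral and tufted cells, had levels of 1.99 and 2.90, against 1.91. Of 12 measured olfactory bulb genes 7 and 10 were above the untreated array, with medians of 0.03 and 0.21. On day 3 at 1250 mg/kg Doc2g stood at 0.94 and Cdhr1 at 2.83. On day 10 both lay below the untreated array at each dose. How much olfactory bulb each sample held was not tested.

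Lower at 1250 mg/kg alone were 34 genes, all by less than 2-fold. After Isg15 the largest change was that of Vkorc1, the vitamin K reductase, with levels of 3.95 and 3.44 at 50 and 1250 mg/kg, against 4.22 in untreated brain. Its 2 other probes changed by -0.31 and -0.41 at 1250 mg/kg, and the mean over probes, at -0.49, was not called. Nol12, a nucleolar protein, had levels of 2.89 and 2.34, against 3.09. Sox18, a transcription factor of endothelial cells, had levels of 1.34 and 1.06, against 1.79. Lpl, lipoprotein lipase, had levels of 3.41 and 2.88, against 3.60. Kitl, the ligand of the Kit receptor, Dnajc3, a co-chaperone of the endoplasmic reticulum, and Unc80, a subunit of the sodium leak channel, changed by -0.72, -0.72 and -0.70 at 1250 mg/kg and by -0.48, -0.12 and -0.15 at 50 mg/kg.

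The adrenergic, immediate early, clock and striatal lists held no called gene at either dose. Over all genes 0.311% and 1.04% were called, so no call in lists of 11 to 21 genes is near that share. Of 16 measured adrenergic and cAMP signalling genes 10 and 9 were above the untreated array, with medians of 0.08 and 0.02, and none passed 1.5-fold at either dose. Among them Gnas, which encodes the stimulatory G protein subunit, changed by -0.44 and -0.02, the adenylyl cyclase Adcy9 by 0.43 and 0.21, and the striatal phosphodiesterase Pde10a by 0.26 and 0.43. Of 21 immediate early genes 16 and 14 were above it, with medians of 0.10 and 0.13 and no call. Egr2 changed by 0.29 and 0.58, just under the threshold, and it passed at 1250 mg/kg in the deposited values, at 0.60. Fos changed by 0.10 and 0.51. Of 18 circadian clock genes 12 and 14 were above it, with medians of 0.07 and 0.23 and no call. Of 11 dopamine signalling and striatal genes 8 were above it at each dose, with medians of 0.20 and 0.21, and the dopamine receptor gene Drd1 changed by 0.23 and 0.39.

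**Figure D4:**
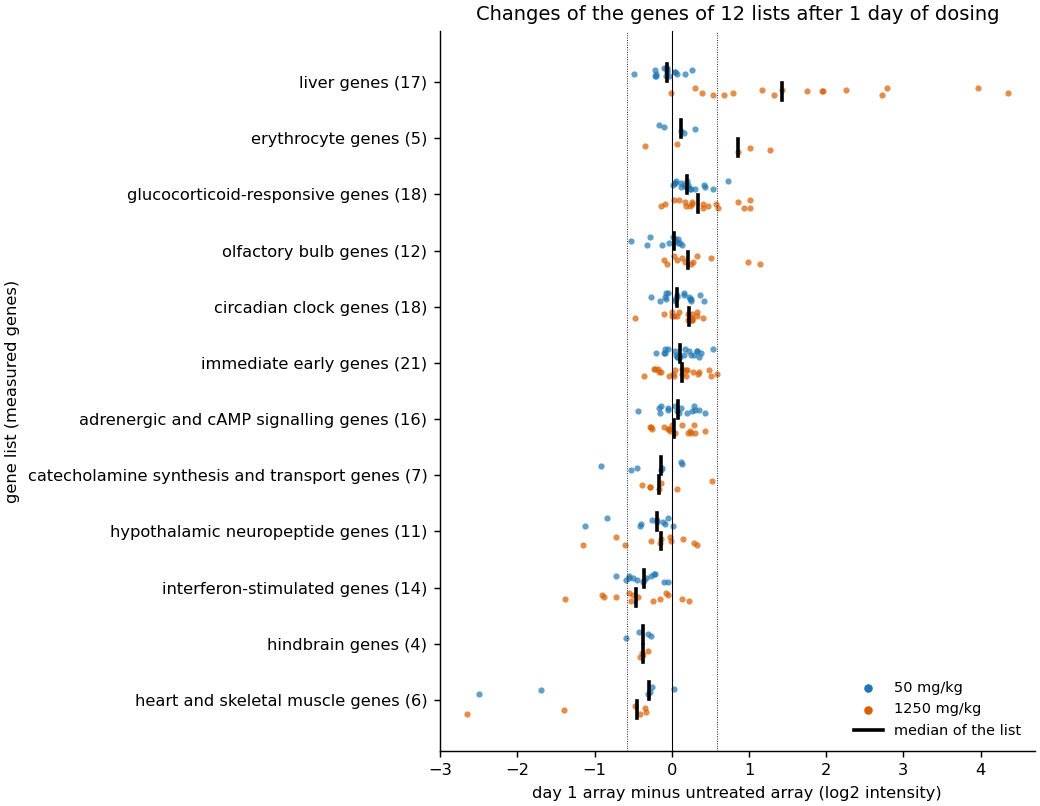
Change of each measured gene of 12 lists on day 1, in log2 intensity against the untreated array, at 50 mg/kg (upper row of each list) and 1250 mg/kg (lower row), with a black bar at the list's median and dotted lines at 1.5-fold. The liver list stands apart at 1250 mg/kg alone. The median of the interferon list lies below 0 at both doses, and the adrenergic, immediate early and clock lists stay within 1.5-fold.

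The 2 day 1 arrays can also be set against each other, which leaves the untreated array out. In all 80 genes (0.888%) differed by at least 1.5-fold. At 1250 mg/kg 48 genes were at least 1.5-fold higher than at 50 mg/kg (0.533% of genes) and 32 lower (0.355%). The higher side repeats the liver, globin and olfactory transcripts, and 29 of the 48 were on none of the lists for other tissues and blood cells. Th had levels of 1.40 at 1250 mg/kg and 0.80 at 50 mg/kg, with 1.33 in untreated brain.

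On the lower side 28 of the 32 genes were on none of the lists. Arc, an immediate early gene of synapses, had levels of 4.40 at 1250 mg/kg and 5.16 at 50 mg/kg, a difference of -0.76, with 4.62 in untreated brain, so the untreated level lay between the doses. Per2, a clock gene, had levels of 2.97 and 3.69 at 1250 and 50 mg/kg, with 3.45 in untreated brain, and Reps1, a protein of endocytosis, differed by -0.74. Ptpn5, the striatal phosphatase STEP, had levels of 1.64 and 2.38, with 2.34. Cic, a transcriptional repressor, had levels of 1.18 and 1.95, with 1.80. Abcf1, a factor of translation, differed by -0.78, but its 2 other probes changed by at most 0.11 from the untreated array at either dose. Xlr4a, higher than untreated at both doses, was lower at 1250 than at 50 mg/kg by 0.60.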

How the data were processed

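Brain RNA of 7 conditions was read on Illumina bead arrays, 1 array each, and 3 of them are compared here. The deposited values are log-scale intensities with medians from 1.87 to 1.93, read here as log2, since no label states the base, the background step or the normalization by the authors. The 7 columns of a further table match no sample label and were not used. The table lists 25697 probes: 13304 were complete over the arrays and 12393 were empty on each. How probes were kept is not known here, so a gene high on 1 array may have values for that reason. All 7 arrays were quantile normalized (limma 3.58.1, R 4.3.3). The platform annotation named 12150 probes, all matched by Entrez number to the RefSeq table of GRCm38.p6, and 1154 are unnamed. Each of 9009 genes was read by its brightest probe on average, and 2273 genes had several.

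With 1 array per group no test was possible, and precision is limited by that number. Named genes were up to 15 higher and 15 lower at both doses by the smaller change, up to 10 each way at each dose alone and between the doses, and up to 4 called genes per list, or the 2 largest where none was called. Genes named beyond that rule, such as Irgm2, Gbp3, Rsad2, Ifit2, Suz12, Oxt, Th, Ddc, Gch1, Slc6a4, Fkbp5, Mt1, Tsc22d3, Fos, Ces1d, Rdh7, Acaa1b, Inmt, Hp, Hpx, Cyp2a5, Errfi1, Gnas, Car2, Fech, Mmp9, Csf3r, and those named for a promoter motif, were chosen after their values were seen. The comparison and the 32 gene lists were chosen with earlier results of these data known. Counting was checked on simulated arrays. Alternatives were the deposited values, median centring, normalization over 3 arrays, brighter genes, probe means and a 2-fold threshold.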

Additional observations from a re-analysis of the deposited data

Results flagged for a closer look

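In 5 called genes both day 1 arrays lay below the untreated array and all 4 later arrays above it. This difference between days was not tested, and all values share 1 untreated array. The changes at 50 and 1250 mg/kg on day 1, and the range on days 3 and 10, were -0.89 and -0.90, then 0.24 to 0.33, for Irx2. They were -0.61 and -0.61, then 0.32 to 1.13, for Tfap2b, and -0.60 and -0.41, then 0.65 to 1.502, for Tph2. They were -0.60 and -0.03, then 0.16 to 0.81, for Cox20, and -0.14 and -0.65, then 0.28 to 0.55, for Suz12, a subunit of the Polycomb repressive complex. Region lists showed the same pattern. The hindbrain list, which holds Tph2, had medians of -0.37 and -0.38 on day 1 and 0.42 to 0.99 later. The cerebellar list had medians of -0.27 and -0.09, then 0.52 to 1.98. How much hindbrain and cerebellum each sample held was not tested.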

How the results depend on the processing

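No paired analysis was possible because each condition has 1 array. In the deposited values, after median centring, after normalization over 3 arrays and with probe means, all 9 counts stayed within 1.5 times. Restricted to the 4505 brighter genes, 1 gene was higher and 3 lower at both doses. At 50 mg/kg alone 2 were higher and 2 lower, and at 1250 mg/kg alone 8 were higher and 15 lower. Between the doses, 9 were higher at 1250 than at 50 mg/kg. Called genes were more often dim, so these counts fell by more than the number of genes did. Genes lower at 1250 than at 50 mg/kg were not mostly dim, and many, such as Arc, Per2 and Reps1, were in the brightest group. At 1250 mg/kg 9 of 4505 brighter genes were called higher, against 49 of all 9009 genes. Among the brighter genes the erythrocyte median at 50 mg/kg turned to -0.0043, over 2 genes in place of 5. At 2-fold, 2 genes were higher and 3 lower at both doses, 1 was higher and 0 lower at 50 mg/kg alone, 17 higher and 2 lower at 1250 mg/kg alone, and 16 higher and 0 lower at 1250 than at 50 mg/kg. Without the lists of other tissues and blood cells, chosen after seeing the data, 2 genes were higher at both doses, 28 at 1250 mg/kg alone and 29 at 1250 than at 50 mg/kg. Of the values of named genes under the alternatives, 890 kept their side of the threshold, and 12 crossed it or moved by over 1.5 times, among them those of Ifit3, Sncg, Vkorc1, Abcf1 and Creld2 with probe means. With 1 array per condition, no value here separates a change by treatment from a difference between samples.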

Other observations

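Of 63 oxidative phosphorylation genes 10 lay above the untreated array at 50 mg/kg and 33 at 1250 mg/kg, with medians of -0.09 and 0.02, and none was called. Of 49 cytosolic ribosomal protein genes 13 and 32 lay above it, with medians of -0.04 and 0.07, and the second was 0.20 in the deposited values. Of 21 NRF2 targets and metallothioneins 7 and 15 lay above it (medians -0.04 and 0.17), with Gsta3 called at 1250 mg/kg. Of 19 heat shock and unfolded protein response genes 7 and 9 did (medians -0.10 and -0.01, the second 0.03 in the deposited values), with Cryab called lower at 50 mg/kg and Creld2 at 1250 mg/kg.

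Among brain cell and region lists without a called gene, cortical and hippocampal neuron genes were above the untreated array in 12 and 8 of 12 (medians 0.22 and 0.19). GABA signalling genes were above it in 5 and 8 of 10 (medians -0.00 and 0.15), glutamate receptor genes in 5 and 6 of 11 (0.00 and 0.01) and thalamic genes in 4 and 5 of 12 (-0.09 and -0.10). Astrocyte genes were above it in 8 and 6 of 12 (0.09 and -0.01, the second 0.01 in the deposited values). Oligodendrocyte genes were above it in 4 and 6 of 14 (-0.11 and -0.06, the second 0.01 after median centring). Microglial genes were above it in 3 and 8 of 12 (-0.17 and 0.04), endothelial and mural cell genes in 6 and 7 of 18 (-0.16 and -0.06), choroid plexus genes in 6 and 8 of 10 (0.03 and 0.11), meningeal and matrix genes in 8 and 9 of 13 (0.02 and 0.11) and inflammatory genes in 3 and 5 of 7 (-0.01 and 0.06). Over brighter genes only, the microglial median at 1250 mg/kg turned to -0.15, the meningeal one at 50 mg/kg to -0.20 and the thalamic one at 1250 mg/kg to 0.01. Medians of the endothelial list at 1250 mg/kg and the inflammatory list at 50 mg/kg turned there to 0.01 and 0.05.

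Of the 1154 unnamed probes, 0 were called at both doses. At 50 mg/kg alone there were 2 above and 2 below the threshold, and at 1250 mg/kg alone 4 above and 7 below.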
